A study of Saccharomyces cerevisiae with 12 samples.

Results

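The distal part of external transcribed spacer 1 (ETS1) comprises positions 351 to 700 of the yeast 35S gene, counted from the start of transcription. Every row of the deposited tables with such a coordinate was taken, which gave 350 of the 6858 positions of the gene, at each of 2 treatment times. On assembly R64-1-1 these positions lie at XII:466870-467219 on the minus strand, and position 701 is the first nucleotide of 18S. NET-seq of RNA polymerase I (Pol I) was performed in Saccharomyces cerevisiae treated with 50 μM BMH-21 or with the phosphate buffer vehicle, for 2 min or 16 min. There were 3 libraries per treatment and time, 12 in all, described by the study as biological triplicates. All 12 came from 1 wild-type strain, in which the second-largest Pol I subunit carries an HA tag (RPA135-(HA)3-(His)7::TRP1mx6) and the largest is supplied from a plasmid (rpa190Δ::HIS3Mx6 carrying pRS315-RPA190). The cells were grown at 30 °C to an OD600 of 0.3 before treatment. Values are given in RPM, the read ends at a position after each library was scaled to the same total over the 35S gene. They are thus shares of the 35S signal and not amounts of RNA per cell, and the tables of the 2 times were scaled separately.

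Pol I transcribes the 35S gene into a single pre-rRNA that holds 18S, 5.8S and 25S between spacers, and the spacers are removed as the ribosomal subunits assemble. ETS1 is the leader of this transcript. It binds the U3 snoRNP and the small subunit processome, and it is cut at A0, inside the leader, and at A1, at the 5′ end of 18S. NET-seq reads the 3′ end of RNA that is pulled down with the polymerase. A high position is commonly read as a place where Pol I dwells, and a 3′ end left by a cut near the polymerase would be read in the same way, so that these sources cannot be told apart here. BMH-21 is a planar DNA intercalator that inhibits Pol I.

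Sequence is shown for the places to which the results below return, the recurrent pauses, the A0 site, the purine stretch that follows it, and the 18S boundary. All bases are those of the RefSeq genome, written as RNA from 5′ to 3′, and they matched the deposited table at 6858 of 6858 positions. In the first pair capitals mark positions that were pauses in all 4 groups (405, 419, 436 and 437, then 496 and 497). The next capital marks the A0 position, 610. Capitals in the line after it mark positions 622 and 623, and in the last pair they mark position 643, inside a run of 11 A, and position 700, the last one before 18S.
Positions 390 to 452, XII:467118-467180: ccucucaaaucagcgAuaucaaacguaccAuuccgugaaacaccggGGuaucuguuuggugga
Positions 481 to 512, XII:467058-467089: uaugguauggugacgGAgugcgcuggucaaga
Positions 590 to 630, XII:466940-466980: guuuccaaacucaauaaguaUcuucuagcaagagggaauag
Positions 607 to 638, XII:466932-466963: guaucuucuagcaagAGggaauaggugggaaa
Positions 623 to 663, XII:466907-466947: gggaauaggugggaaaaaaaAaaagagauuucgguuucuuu
Positions 660 to 720, XII:466850-466910: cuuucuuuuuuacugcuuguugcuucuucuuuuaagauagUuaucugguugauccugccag

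Signal in distal ETS1 was lower after BMH-21 at both times. At 2 min the region held 0.672%, 0.251% and 0.399% of the 35S signal in the BMH-21-treated libraries, against 1.21%, 1.45% and 1.46% in the vehicle-treated libraries. The groups did not overlap, with 0.440% ± 0.214 after BMH-21 and 1.37% ± 0.142 after vehicle (SD, n = 3 each), a log2 difference of -1.75 (p = 0.1 by an exact permutation test, two-sided as all such tests here, and the smallest that 3 against 3 can give). At 16 min the shares were 0.175%, 0.130% and 0.211% in the BMH-21-treated libraries and 0.975%, 1.12% and 1.20% in the vehicle-treated libraries. Again no library of one treatment reached the range of the other, with a log2 difference of -2.70 (exact permutation test, p = 0.1). Over both times the difference was -2.22, lower in 6 of 6 BMH-21-treated libraries than in any vehicle-treated library of the same time (exact permutation test within times, p = 0.005, the smallest that 400 arrangements can give). The 16-min difference was -0.95 from the 2-min one, which did not pass a test of the difference between the times (exact permutation test, p = 0.255).

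Set against the other spacers, distal ETS1 was lower in ratio to the internal and 3′ spacers after BMH-21, with no overlap between treatments at either time, while its ratio to proximal ETS1 differed less. The ratio of distal ETS1 to ITS1, ITS2 and ETS2 together (804 positions) was 0.322 ± 0.042 after BMH-21 and 0.544 ± 0.022 after vehicle at 2 min, a log2 difference of -0.77. At 16 min it was 0.470 ± 0.020 after BMH-21 and 0.633 ± 0.073 after vehicle, a difference of -0.42 (SD, n = 3 each, exact permutation test, p = 0.1 at each time). Without the spacer positions that lie 30 nt or less from mature rRNA, the 2-min difference was -0.37. The spacers were not alike. At 2 min ITS1, ITS2 and ETS2 held 0.339%, 0.713% and 0.275% of the 35S signal after BMH-21, against 0.866%, 1.12% and 0.532% after vehicle. At 16 min the ratio to ETS2 alone overlapped between treatments. BMH-21 replicate 1 had 1751 RPM in distal ETS1 and 629 RPM in ETS2, and vehicle replicate 3 had 12004 and 5014 RPM. Ratios to single spacers were not tested. The ratio of distal to proximal ETS1, positions 1 to 350, was 0.775 ± 0.041 after BMH-21 and 0.843 ± 0.011 after vehicle at 2 min (log2 difference -0.12, exact permutation test, p = 0.1). After 16 min it was 0.873 ± 0.048 after BMH-21 and 0.871 ± 0.069 after vehicle (exact permutation test, p = 1, SD, n = 3 each). Over both times this ratio differed by -0.06 (exact permutation test, p = 0.245).

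**Figure D1:**
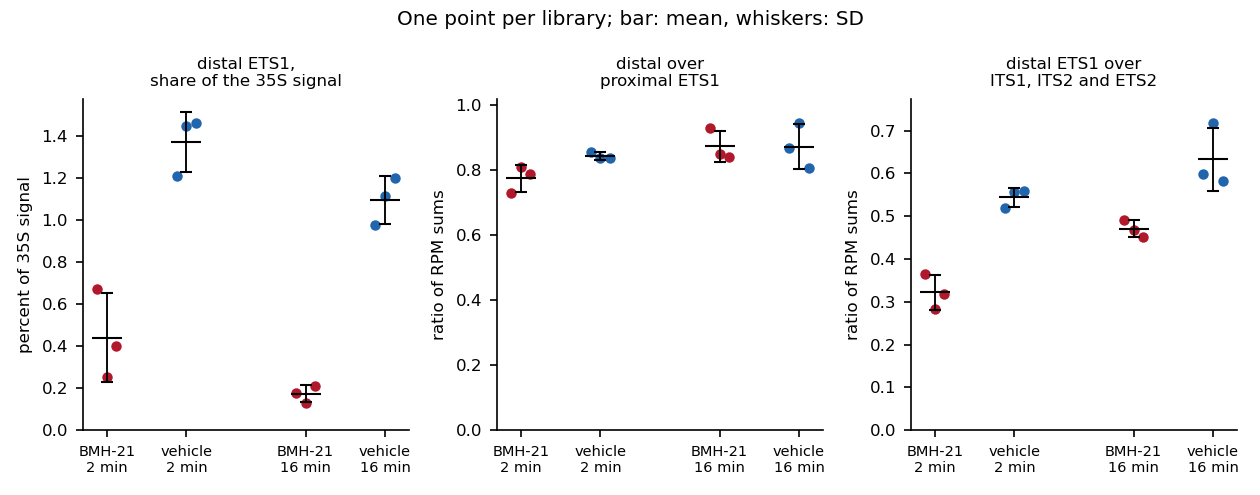
Distal ETS1 per library, as a percentage of the 35S signal (left), as a ratio to proximal ETS1 (middle) and as a ratio to the other spacers (right), with means and SD of 3 libraries. BMH-21-treated libraries lie at 0.251% to 0.672% of the 35S signal at 2 min and 0.130% to 0.211% at 16 min, all under their vehicle-treated libraries, and the ratio to proximal ETS1 overlaps between treatments at 16 min.

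The loss was spread over most of the region, and no position was called higher. Among tested positions that were not called, 4 of 70 at 2 min and 5 of 139 at 16 min had a positive log2 fold change. At 2 min, 272 of the 342 tested positions (79.5%) were lower after BMH-21 by limma at a Benjamini-Hochberg adjusted p under 0.05, against 23.4% of all tested 35S positions, and 0 were higher, against 3.56%. Without adjustment, a p under 0.05 was reached at 305 positions that were lower and 0 that were higher, and edgeR on the recovered reads called 243 and 0. At 16 min, 197 of 336 (58.6%) were lower, against 11.7% of all tested 35S positions, and 0 were higher, against 0.104% (limma without adjustment 271 and 0, edgeR 134 and 0). The median log2 fold change was -1.62 at 2 min and -2.28 at 16 min, beside medians of -0.26 and -0.06 over the 35S gene. The paper treats mature rRNA in its libraries as contamination that could not be removed, and it reads nascent transcription from the spacers. At 2 min 18S, 5.8S and 25S held 27.3%, 4.05% and 63.1% of the 35S signal after vehicle, and they make up most of the tested positions. Shares and medians over the gene thus describe mainly these regions and cannot be read as Pol I loss elsewhere. Since values are shares, scaling matters. A median-ratio scaling moved the 35S median by 0.25 at 2 min and 0.11 at 16 min, and it called 146 and 186 positions lower. The region then stood at -1.38 and -2.27 from the 35S median, against -1.36 and -2.22 on the deposited scale. The 2-min count rests on few libraries. It was 0 without vehicle replicate 2 or 3 (281 and 283 without adjustment), 117 without vehicle replicate 1 and 131 without BMH-21 replicate 3. Each 2-min call given below on the deposited scale is lost without vehicle replicate 2 or 3. Without BMH-21 replicate 2, 1 position was called higher at 2 min.

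Counted without a test, all 3 BMH-21-treated libraries lay below all 3 vehicle-treated ones at 301 of the 350 positions at 2 min and at 250 at 16 min, and above them at none. This count was made for the region only, so it does not show how far such separation is particular to it. The positions not tested, 8 at 2 min and 14 at 16 min, had a mean under 1 RPM, and all 8 at 2 min lay after A0. Tested positions that were not called had a lower median vehicle mean, 7.21 RPM at 2 min and 6.26 RPM at 16 min, than called ones, 24.3 and 22.6 RPM. Of the called positions 171 were shared by both times. These were 62.9% of those at 2 min, where 58.6% of the region's tested positions were called at 16 min. They were 86.8% of those at 16 min, where 79.5% of tested positions were called at 2 min. The overlap thus lay only somewhat above these shares. The region held 2221 to 102137 reads per library, and the median position only 2 to 4 reads in the BMH-21-treated libraries at 16 min, where 76 to 106 of the 350 positions had none. Spearman's coefficient across the region's positions, which are not independent replicates, lay between 0.896 and 0.907 for pairs of BMH-21-treated libraries and between 0.972 and 0.990 for pairs of vehicle-treated libraries at 2 min. At 16 min it lay between 0.539 and 0.582 after BMH-21 and between 0.785 and 0.941 after vehicle.

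**Figure D2:**
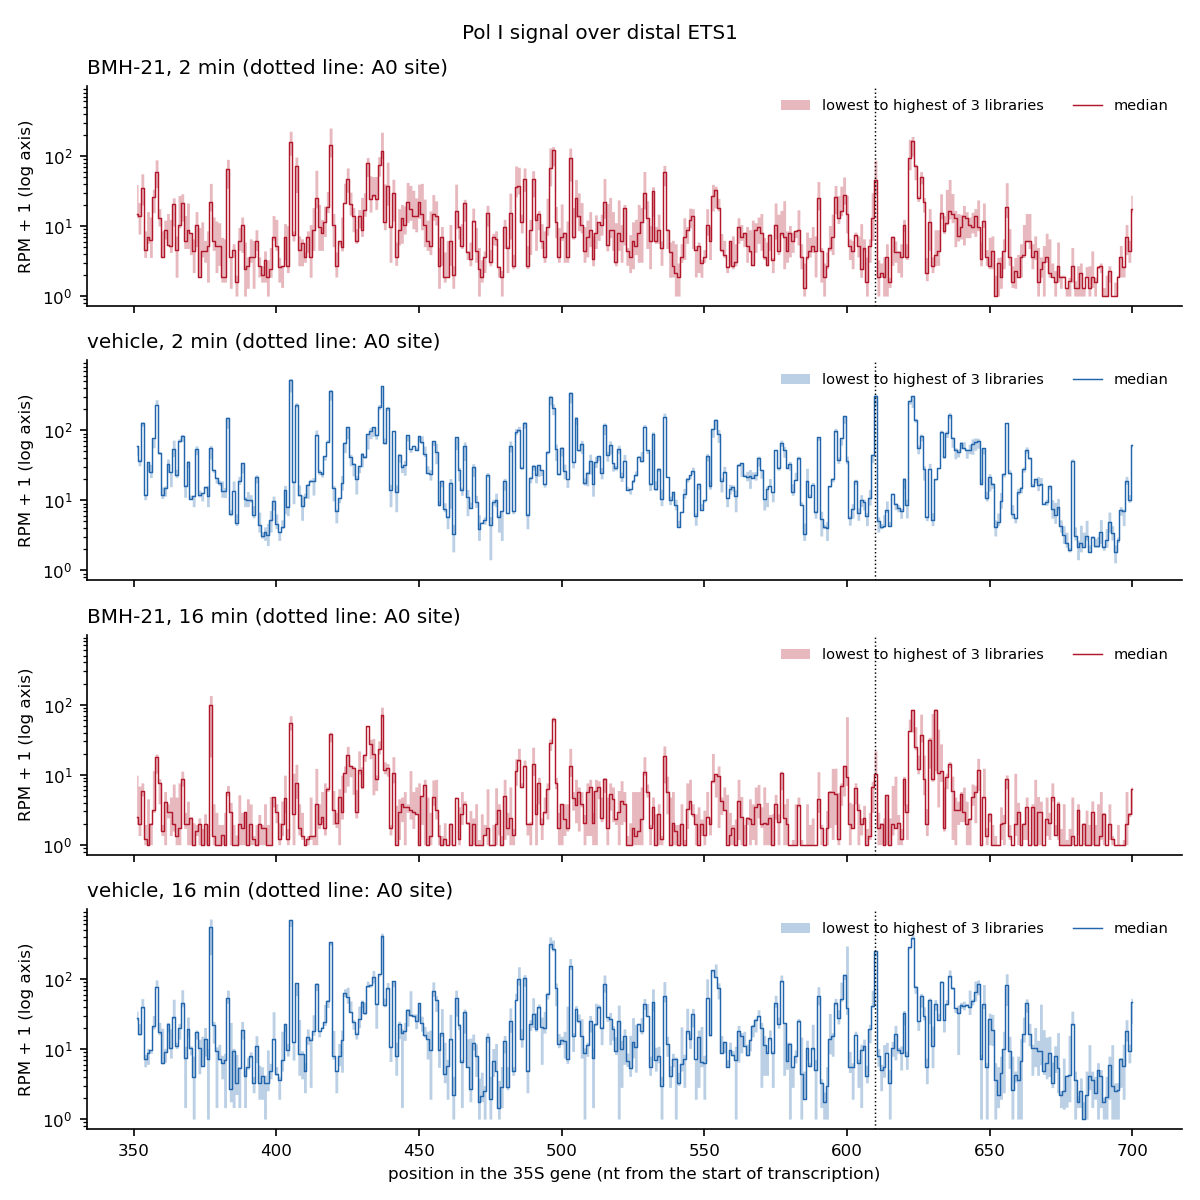
Signal at each of the 350 positions of distal ETS1 (RPM + 1 on a log axis), as the median of 3 libraries with their lowest and highest value, for BMH-21 above vehicle at each time. The same peaks stand out in all 4 panels, among them 405, 437 and 623, on a floor that is lower after BMH-21, and the last 50 positions before 18S form a trough.

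Pauses were taken as positions above 3 times the region's mean in all 3 libraries of a group, and most were shared by both treatments. At 2 min there were 21 such positions after BMH-21 and 22 after vehicle, with 16 in common (76.2% and 72.7%). At 16 min there were 14 in each treatment, with 9 in common (64.3% of each). At both times these positions held similar parts of the region's signal, 40.1% ± 2.90 after BMH-21 and 36.4% ± 0.202 after vehicle at 2 min, and 37.7% ± 1.29 and 37.1% ± 1.44 at 16 min (SD, n = 3 each). Of 33 positions that were pauses in any group, 8 were pauses in all 4, and these lie in 3 clusters, 405 to 437, 496 and 497, and 622 and 623. Each of the 8 ends on A or G, in the order A, A, G, G, G, A, A, G.

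Position 405, an A, was the highest vehicle position at both times. It had 224, 102 and 158 RPM after BMH-21, against 352, 548 and 523 RPM after vehicle, at 2 min (log2 fold change -1.60 ± 0.31, SE; limma adjusted p = 0.016). At 16 min it had 68.6, 42.3 and 53.1 RPM after BMH-21, against 710, 698 and 562 RPM after vehicle (-3.58 ± 0.23, adjusted p = 0.00073). So this pause fell about as the region did at 2 min. It fell further at 16 min, where it was also lower after every library had been scaled to the same sum over the region (-0.91, limma adjusted p = 0.022, and 0.023 to 0.088 when 1 library was left out). On that scale the region's median tested position stood at -0.53, and adjusted p-values lie close to unadjusted ones, as described below. Position 437, the last G of the run of 4 G, had 217, 91.6 and 115 RPM after BMH-21, against 434, 421 and 427 RPM after vehicle at 2 min. After 16 min it had 64.7, 70.7 and 91.1 RPM after BMH-21, against 382, 409 and 450 RPM after vehicle. Its log2 fold changes of -1.69 and -2.45 (adjusted p = 0.013 and 0.001) were close to the region's own, at 0.05 and 0.23 on the region's scale. Positions 419 and 497, both A, fell by 1.14 and 0.93 at 2 min (adjusted p = 0.048 and 0.042) and by 3.18 and 2.24 at 16 min (adjusted p = 0.00073 and 0.0013) on the log2 scale. Position 503, a C that was among the highest vehicle positions at 2 min, fell by 1.94 (adjusted p = 0.017), to 129, 42.7 and 91.3 RPM after BMH-21, against 245, 340 and 353 RPM after vehicle.

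Position 377, a U, stood out at 16 min only. It had 99.3, 16.9 and 134 RPM after BMH-21, against 222, 717 and 546 RPM after vehicle, and -2.83 ± 0.83 with an adjusted p of 0.087 did not pass the threshold. At 2 min it had 39.6, 15.4 and 21.3 RPM, against 38.1, 59.8 and 55.2 RPM. Position 377 is also the only 1 of the 350 positions at which the 4 bases that start 11 nt downstream equal the first fixed bases of the ligated linker after its 8 random bases. The same holds at 10 positions of the gene (0.146%). The part of that match in the height of this peak was not tested.

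Bases at the read end were unevenly used. A and G make up 29.4% and 23.4% of the positions but carried 38.8% ± 0.878 and 34.2% ± 0.907 of the region's signal after BMH-21 at 2 min, and 39.0% ± 0.567 and 32.6% ± 0.704 after vehicle. U, at 29.4% of the positions, carried only 13.8% ± 1.07 after BMH-21 and 15.6% ± 0.115 after vehicle, and C, at 17.7%, carried 13.2% ± 0.356 and 12.9% ± 0.237 (SD, n = 3 each). At 16 min G carried 35.2% ± 2.41 after BMH-21 and 31.2% ± 0.890 after vehicle, and A carried 35.1% ± 2.45 and 38.8% ± 2.32, so that A and G differed by less than their SD after BMH-21. Purine ends thus dominated in both treatments. Around the top 5% of positions in each library (18 positions), G made up 28.1% of the 30 bases downstream of the read end in each BMH-21-treated library at 2 min, against 25.6% to 25.7% in the vehicle-treated ones. For the 16-min libraries it was 28.7%, 29.8% and 28.3% after BMH-21, against 26.5%, 24.8% and 26.7% after vehicle. The groups did not overlap at either time (differences of 2.53 and 2.96 percentage points, exact permutation test, p = 0.1). The excess was 1.48 points at 2 min and 0.12 points at 16 min (exact permutation test, p = 0.1 and p = 1) over the top 2.5%. With the last 30 positions left out it was 1.04 and 1.74 points (exact permutation test, p = 0.2 and p = 0.1). This setting also shortens the list of top positions, which is 5% of those kept, and no pause lay in the last 30 positions at either time. The part of those positions in the change, here and for U below, was not tested. U in the last 10 bases of the transcript was 15% in each BMH-21-treated library and 15%, 16.1% and 16.1% in the vehicle-treated ones at 2 min (exact permutation test, p = 0.4). It was 15.4% ± 1.16 after BMH-21 and 18.3% ± 1.47 after vehicle at 16 min (SD, n = 3 each, exact permutation test, p = 0.1), a difference of -2.96 points. It was -5.19 points over the top 2.5% and -4.37 points with the last 30 positions left out (exact permutation test, p = 0.1 for both), but 0.29 points over the top 10% (p = 0.8 by the same exact test). For 2 min it was -0.74 points, and -3.33 points over the top 2.5% (exact permutation test, p = 0.1).

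The A0 position, 610, a U, fell at both times and at 16 min fell more than its region. Its peak ends abruptly, since position 611 had at most 2.29 RPM after BMH-21 and 4.84 RPM after vehicle at 2 min. It had 86.1, 26.5 and 44.4 RPM after BMH-21, against 227, 323 and 304 RPM after vehicle, at 2 min (log2 fold change -2.57 ± 0.40; limma adjusted p = 0.010). At 16 min it had 8.83, 9.10 and 20.9 RPM after BMH-21, against 213, 248 and 251 RPM after vehicle (-4.20 ± 0.34, adjusted p = 0.001), a 19.9-fold difference of geometric means. The vehicle libraries thus kept the peak at about the same height at both times, while after BMH-21 it was at most 20.9 RPM at 16 min. On the region's scale the change was -0.84 at 2 min (adjusted p = 0.062) and -1.60 at 16 min (adjusted p = 0.0013, and 0.00059 to 0.0064 when any 1 library was left out). As a share of the region, position 610 held 1.15% after BMH-21 and 2.07% after vehicle at 2 min, and 0.732% and 2.17% at 16 min.

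The 20 positions around the site, 601 to 620, held 2.86% ± 0.17 of the region's signal after BMH-21 and 3.36% ± 0.20 after vehicle at 2 min, and 2.90% ± 0.19 and 4.09% ± 0.05 at 16 min (SD, n = 3 each). The log2 differences were -0.23 and -0.50 (exact permutation test, p = 0.1 at each time). Position 610 lies in this window and held 1.15% after BMH-21 and 2.07% after vehicle at 2 min, and 0.732% and 2.17% at 16 min. Its mean share fell by more than that of the window at both times. The window thus repeats the fall of position 610, and its other positions together did not fall in mean share. The decrease was larger in a window of 10 positions (-0.57 and -1.04) and turned into an increase in one of 40 positions (0.32 and 0.46). The wider window takes in positions 622 and 623, which held 6.07% of the region after BMH-21 and 3.87% after vehicle at 2 min, and 6.76% and 6.21% with overlapping libraries at 16 min. It also takes in most of 626 to 631, described below. Those peaks stand 12 and 13 nt past the site. Position 623, a G, had 189, 98.6 and 163 RPM after BMH-21, against 210, 312 and 315 RPM after vehicle, at 2 min (-0.92, limma adjusted p = 0.052). After 16 min it had 81.6, 39.4 and 85.4 RPM after BMH-21, against 365, 439 and 390 RPM after vehicle (-2.59, adjusted p = 0.0038). The ratio of position 610 to the sum of 622 and 623 was 0.192 ± 0.041 after BMH-21 and 0.532 ± 0.023 after vehicle at 2 min. At 16 min the ratio was 0.114 ± 0.052 and 0.350 ± 0.020 (SD, n = 3 each), and the treatments overlapped at neither time. This ratio was chosen after the values were seen and is given without a test.

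**Figure D3:**
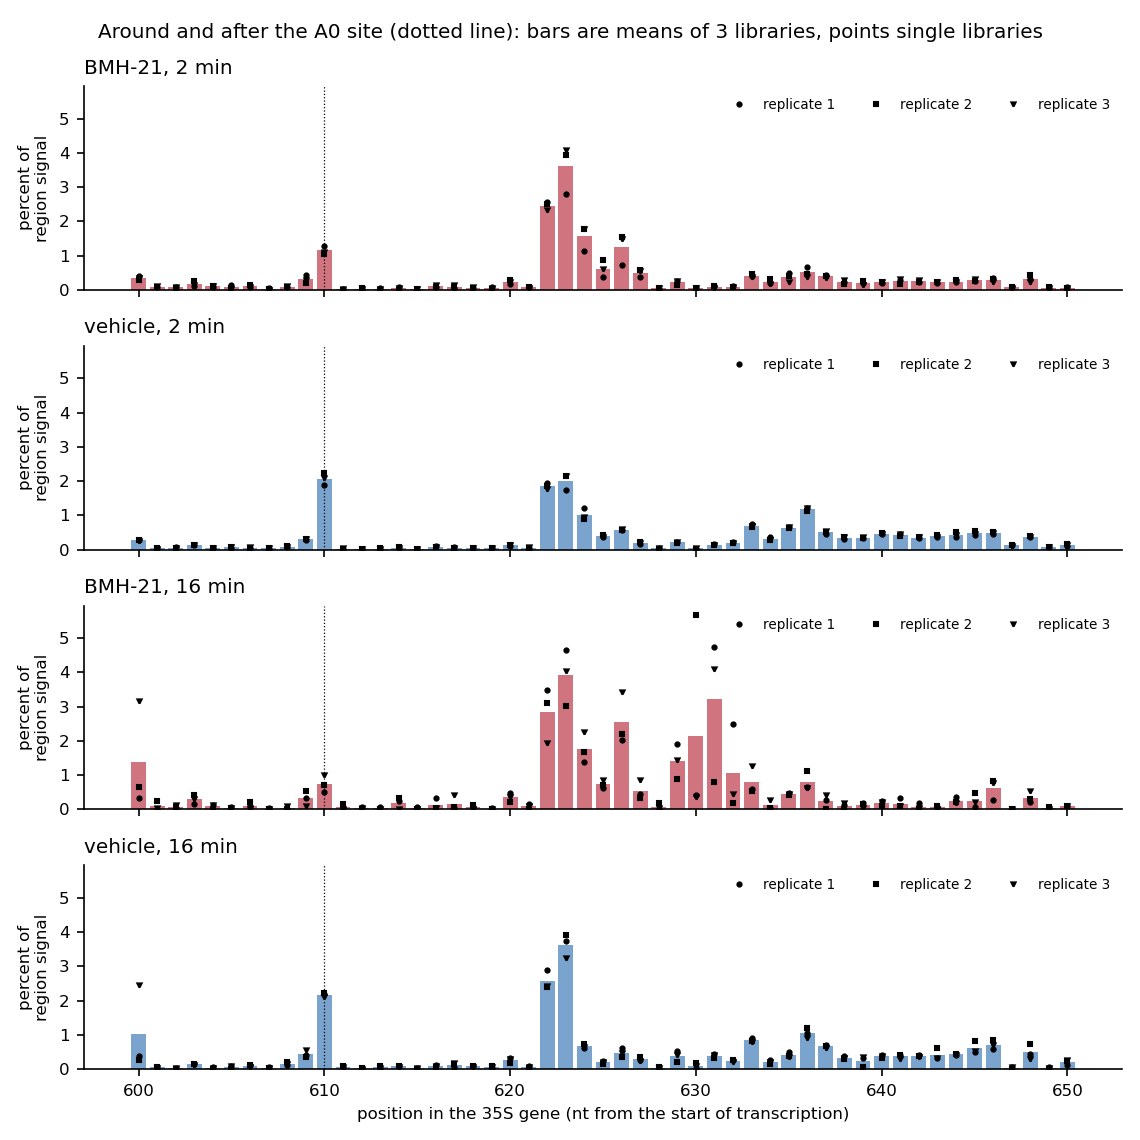
Share of the region's signal at positions 600 to 650 (percent), with bars for the mean of 3 libraries and points for single libraries, BMH-21 above vehicle at each time. The peak at 610 is smaller after BMH-21 (0.732%, against 2.17% after vehicle, at 16 min), and at 16 min signal after BMH-21 gathers at 622 to 632, with replicate 2 high at 630 and replicates 1 and 3 at 631.

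Between A0 and 18S the loss was uneven, lighter in the purine stretch just past A0 and heavier in the A run that follows. In the pyrimidine tract after these it was heavier at 2 min, while at 16 min the tract's share of the region overlapped between treatments. Positions 622 to 635, a window chosen after the values were seen, held 11.5% ± 1.69 of the region's signal after BMH-21 and 8.30% ± 0.117 after vehicle at 2 min, and 21.6% ± 1.78 and 10.4% ± 0.858 at 16 min (SD, n = 3 each). The other 76 positions between A0 and 18S held 7.37% ± 0.333 and 11.5% ± 0.372 at 2 min, and 7.92% ± 0.270 and 11.4% ± 1.18 at 16 min. The run of 11 A at 636 to 646 was 5.94-fold lower after BMH-21 at 2 min and 12.7-fold lower at 16 min as a ratio of geometric means, with no overlap in its share of the region. Within it, position 643 had 1.41, 1.33 and 0 RPM after BMH-21, against 30.2, 68.4 and 39.2 RPM after vehicle, at 16 min (-4.64, limma adjusted p = 0.0017). This was the largest fall at that time among positions with a vehicle mean of at least 10 RPM, and its size depends on the pseudocount.

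Positions 651 to 700, of which 60% are U, formed a trough in both treatments. They held 137 ± 75.1 RPM after BMH-21 and 651 ± 11.8 RPM after vehicle at 2 min (SD, n = 3 each), or 3.06% and 4.79% of the region. This 5.24-fold difference was the largest of the 7 bins of 50 positions at that time. The bin holds position 656, which was a pause after vehicle but not after BMH-21 at 2 min and is named here after its values were seen. At 16 min they were 7.72-fold lower, with overlapping shares of the region (2.89% to 3.76% after BMH-21, 3.24% to 4.75% after vehicle). The last 30 positions before 18S held 1.31% ± 0.12 of the region after BMH-21 and 1.54% ± 0.25 after vehicle at 2 min (exact permutation test, p = 0.2). They held 1.68% ± 0.52 and 1.57% ± 0.25 at 16 min (exact permutation test, p = 1, SD, n = 3 each), and the sign of the difference changed with the length of the window. Position 700 stood above the 10 positions before it in every library, by 10.0 to 16.7 times their mean after BMH-21 and 11.1 to 12.1 times after vehicle at 2 min. The 16-min multiples were 5.45 to 7.89 after BMH-21 and 5.32 to 9.62 after vehicle. It had 26.5, 14.5 and 16.2 RPM after BMH-21, against 60.8, 62.6 and 56.3 RPM after vehicle, at 2 min (-1.65, limma adjusted p = 0.0093). At 16 min it had 5.30, 1.71 and 5.69 RPM after BMH-21, against 22.1, 45.9 and 52.3 RPM after vehicle (-2.99, adjusted p = 0.0087). The last nucleotide before 18S, where A1 cleavage would leave a 3′ end, therefore changed by 0.05 and -0.60 relative to the region (adjusted p = 0.92 and 0.20), with no detectable difference from it.

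To find positions that changed unlike the region's sum, every library was scaled to the same sum over the region and limma was run again on the whole table. The sum weighs high positions most. On this scale the region's median tested position itself stood at -0.13 at 2 min and -0.53 at 16 min. A typical position thus also lay below the sum, and counts of lower and higher calls are to be read with that shift. At 2 min, 24 of 343 tested positions were lower and 15 higher than the region as a whole, and at 16 min 70 of 331 were lower and 24 higher. Over all tested 35S positions the calls were 0.741% lower and 74.3% higher at 2 min, and 2.51% lower and 81.0% higher at 16 min, shares that follow from this scale, on which the mature regions, most of the table, are raised. The adjustment ran over this whole table, so it removed few calls in the region. Without adjustment, a limma p under 0.05 was reached at 29 lower and 17 higher positions at 2 min, and at 73 and 26 at 16 min. Adjusted p-values on the region's scale thus lie close to unadjusted ones and do not control the error rate within the region. These counts move with the libraries. At 2 min they were 80 lower and 41 higher without BMH-21 replicate 1, 38 and 23 without BMH-21 replicate 2, and 2 and 4 without BMH-21 replicate 3. They were 5 and 6, 3 and 8, and 6 and 6 without vehicle replicates 1, 2 and 3. The 16-min lower count was 34 and 36 without vehicle replicates 1 and 3. The edgeR test called 37 lower and 30 higher at 2 min, with 20 and 15 in common with limma. For 16 min it called 30 lower and 19 higher, with 27 and 14 in common. Positions 577, 640, 650, 657, 663 and 679 were lower at both times. These are 25% of the 24 at 2 min, close to the 21.1% of tested positions called lower at 16 min. Positions 400, 432, 490 and 626 were higher at both times, 26.7% of the 15 at 2 min, beside 7.25% of tested positions called higher at 16 min.

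Of the 24 positions lower than the region at 2 min, 11 lay in the last bin, 651 to 700, which holds 43 of the 343 tested positions (12.5%). U ended 10 of the 24, against 28.9% of the tested positions, and 7 of these 10 lay in the last bin, so that both counts rest largely on the same positions. The 5 that fell most at 2 min, among positions with a vehicle mean of at least 10 RPM, were 679, 667, 636, 668 and 578. Position 679, a U in the tract before 18S, had 3.93, 0.581 and 1.71 RPM after BMH-21, against 38.1, 34.7 and 35.3 RPM after vehicle (-3.74 ± 0.38, limma adjusted p = 0.0067). Its fold change on the region's scale was -2.45 (adjusted p = 0.0020). It was 1 of the few positions of this trough with a clear vehicle peak, and it was nearly empty after BMH-21 at 16 min too, with 0.353, 0 and 3.79 RPM, against 21.8, 20.7 and 33.8 RPM. Positions 667 and 668, in the longest run of U (6 bases, 665 to 670), fell by 3.12 and 2.84. Position 636, the first A of the A run, fell by 2.94, with 45.2, 11.6 and 15.4 RPM after BMH-21, against 146, 162 and 178 RPM after vehicle. Position 578 fell by 2.77, with 21.9 RPM in BMH-21 replicate 1 and 1.45 and 5.97 RPM in the other two, against 57.8, 50.8 and 40.1 RPM after vehicle. The 5 lowest at 16 min were 643, 414, 642, 450 and 551, with log2 fold changes of -4.64, -4.46, -4.42, -4.36 and -4.33 (adjusted p = 0.0017, 0.018, 0.0026, 0.015 and 0.0018). By then 414, 450, 642 and 643 had no read in at least 1 BMH-21-treated library each, so that these sizes depend on the pseudocount. With 1 library left out, the limma adjusted p reached 0.069 at 414 and 0.064 at 450, and stayed under 0.05 at 643, 642 and 551.

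Of the positions that lost least at 2 min, 432 lay just before a run of G and 490 in a pair of G. Position 627 lay just past such a run, and 420 and 361 lay at none. Position 432, a C that is followed by CGGGG, had 93.9, 50.0 and 79.4 RPM after BMH-21, against 52.8, 87.5 and 87.9 RPM after vehicle, at 2 min, where the treatments overlapped (-0.04 ± 0.30, adjusted p = 0.93). After 16 min it had 46.6, 49.3 and 49.3 RPM after BMH-21, against 79.6, 92.3 and 74.5 RPM after vehicle (-0.74 ± 0.16, adjusted p = 0.032, and over 0.05 when any 1 library was left out). Relative to the region it was higher at both times, by 1.69 (adjusted p = 0.0039) and 1.92 (adjusted p = 0.00032), and it was a pause after BMH-21 at both times but not after vehicle. Position 490, a G followed by UGACGG, had 60.5, 25 and 45.2 RPM after BMH-21, against 26.0, 31.7 and 29.6 RPM after vehicle, at 2 min (0.49 ± 0.31, limma adjusted p = 0.27). Relative to the region it was higher by 2.19 (adjusted p = 0.0020). This was the highest fold change among the 245 positions with a vehicle mean of at least 10 RPM, whose median was -1.83. The other three positions that lost least at 2 min were 627, 420 and 361, with -0.30, -0.54 and -0.67 (adjusted p = 0.39, 0.35 and 0.093).

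The least lowered positions at 16 min were 630, 631, 626, 629 and 432, of which 4 lie within 6 nt of each other, 16 to 21 nt past A0. Position 630 had 7.07, 73.8 and 7.59 RPM after BMH-21, against 4.39, 20.2 and 9.99 RPM after vehicle, and position 631 had 83, 10.4 and 86.3 RPM, against 42.8, 34.9 and 49.9 RPM. Replicate 2 was high at 630 where the other two BMH-21-treated libraries were high at 631. The log2 fold changes of 0.68 and 0.02 (limma adjusted p = 0.76 and 0.99) thus rest on a peak whose place differed by 1 nt between libraries. Position 626 had 35.7, 28.4 and 72.1 RPM after BMH-21, against 61.3, 38.6 and 56.9 RPM after vehicle (-0.28, adjusted p = 0.74). All 4 were higher than the region on its own scale, by 3.19, 2.65, 2.36 and 1.88 for 630, 631, 626 and 629 (adjusted p = 0.017, 0.0043, 0.00021 and 0.0040). For 630 the limma adjusted p was 0.0052 to 0.061 when 1 library was left out. Summed over 626 to 631, which the shift of 1 nt does not touch, the signal was 171 RPM after BMH-21 and 183 RPM after vehicle, or 9.93% ± 0.347 and 1.68% ± 0.243 of the region. It was 2.14% ± 0.553 after BMH-21 and 1.18% ± 0.023 after vehicle at 2 min (SD, n = 3 each). This sum was chosen after the values were seen and carries no test.

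Distal ETS1 holds 3 runs of 3 or more G, at 434 to 437, 623 to 625 and 633 to 635, and the signal before them was described after these positions had been seen. The 15 positions within 5 nt before such a run held 6.84% ± 0.299 of the region's signal after BMH-21 and 4.77% ± 0.056 after vehicle at 2 min. They held 17.9% ± 2.95 and 6.68% ± 0.620 at 16 min (SD, n = 3 each), and the treatments overlapped at neither time. They were not alike. The 5 positions before the first run were 1.95-fold lower at 2 min and 2.43-fold lower at 16 min. Before the second run the falls were 2.48-fold and 5.98-fold, with overlapping shares at 16 min. Before the third the signal was 4.37-fold lower at 2 min, with 0.480% of the region after BMH-21 and 0.623% after vehicle, and at 16 min it was 134 RPM after BMH-21 and 127 RPM after vehicle. The runs themselves held 13.3% ± 1.75 and 11.1% ± 0.441 of the region at 2 min, with overlapping libraries, and 15.1% ± 0.893 and 12.1% ± 0.739 at 16 min. The 12 positions within 5 nt after a run held less after BMH-21 at 2 min, 5.44% ± 0.142 against 6.49% ± 0.271 after vehicle, and more at 16 min, 6.72% ± 0.687 against 5.48% ± 0.317, without overlap at either time (SD, n = 3 each). Of these 15 positions, 1 was called higher than the region and 1 lower (632) at 2 min, where 4.37% of the region's tested positions were called higher. The 16-min calls among them were 7 higher and 1 lower (619), where 7.25% of the region's tested positions were called higher.

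**Figure D4:**
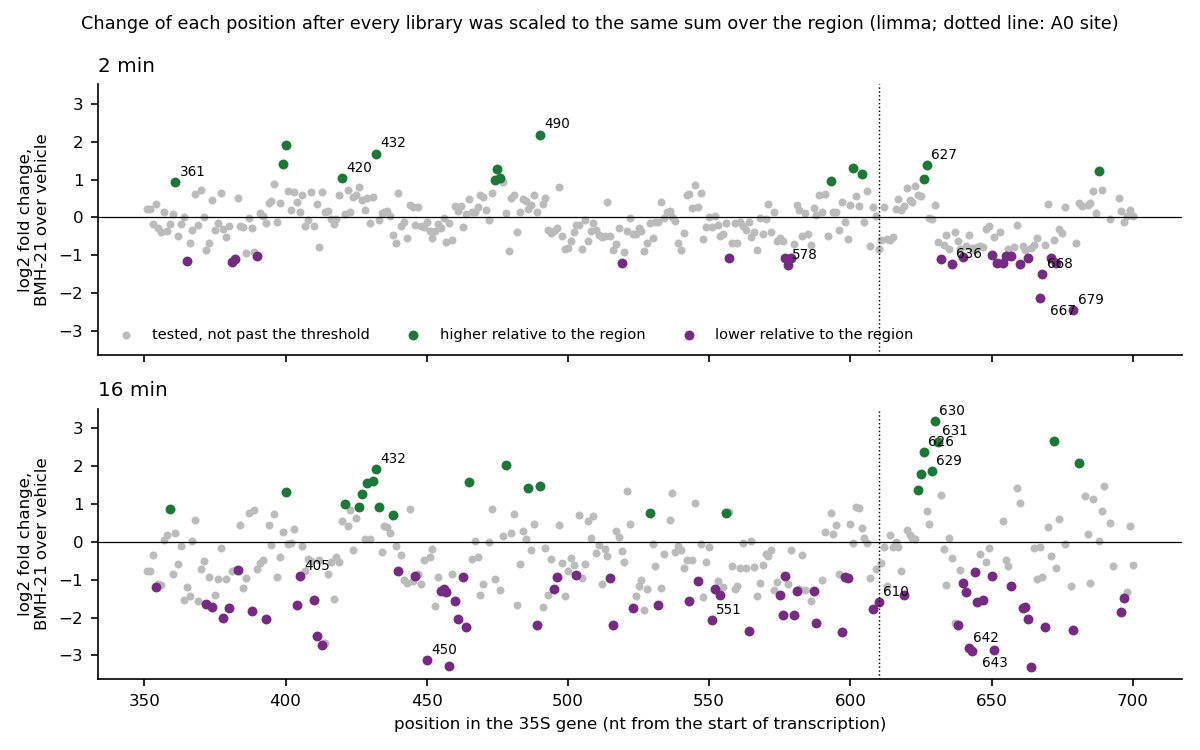
Log2 fold change of each position, BMH-21 over vehicle, after every library was scaled to the same sum over distal ETS1, with calls at an adjusted p under 0.05 (limma) in green where higher and in purple where lower than the region. At 2 min 11 of 24 lower positions lie at 651 to 700, and at 16 min a group of higher positions stands at 624 to 631 beside the lowered A0 position, 610.

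By bins of 50 positions, the fall at 2 min was smallest at 451 to 500 (2.86-fold) and 401 to 450 (2.93-fold) and larger at 501 to 550 (3.99-fold) and 551 to 600 (4.12-fold) and at 651 to 700 (5.24-fold). At 16 min it was smallest at 601 to 650 (4.87-fold), which holds the purine stretch, and largest at 551 to 600 (9.60-fold). The bin 551 to 600 held less of the region after BMH-21 at both times without overlap, 9.71% and 11.9% at 2 min and 8.4% and 12.4% at 16 min. The bin 601 to 650 held 27.9% after BMH-21 and 21% after vehicle at 16 min, and all positions past A0 (611 to 700) held 29.5% ± 1.5 of the region after BMH-21 and 21.9% ± 1.1 after vehicle. At 2 min the share past A0 was 18.9% ± 1.45 and 19.8% ± 0.479, and the libraries overlapped (SD, n = 3 each).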

How the data were processed

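NET-seq values of 12 libraries were read from the authors' tables, one per treatment time. Per the paper and the submitters' notes, reads were trimmed with cutadapt 1.12, aligned with STAR 2.7.1a to assembly R64-1-1, and the 5′ read ends, which are RNA 3′ ends, were counted per position. The authors deposited RPM values, scaled to the read ends of each library on the 35S gene, and also means, medians, ratios and p-values per position, which were not used. No per-library column was left out (0 of them). Whether reads were merged by molecular identifier is not given in the sources used here, so depth describes counting error only. Dividing by the value of 1 read gave whole reads, within 0.01, at 99.9% to 100% of positions. By these, depth over the 35S gene was 1054374 to 10480384 reads. The untagged control is not analysed here.

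Within each time, positions with a mean of at least 1 RPM were tested on log2(RPM + 1) with limma 3.58.1 in R 4.3.3, with Benjamini-Hochberg adjustment over the whole 35S table and a threshold of 0.05. A fold change on this scale understates changes at low positions. edgeR 4.0.16 (quasi-likelihood) on the recovered reads was an alternative. Both were checked on simulated data in which scattered positions were raised or lowered. A loss shared by a whole region and the scaling to the region were not simulated. Values with 1 number per library were compared by permuting the libraries exhaustively. The test of the time difference permutes time within treatment, so a change with time shared by both treatments also enters its p. The software was Python 3.11.15 with pandas 2.3.3, numpy 2.4.6, scipy 1.17.1 and, for plots, matplotlib 3.10.9. Positions named were, per time, the 5 highest of each treatment, the 5 most and 5 least lowered with a vehicle mean of at least 10 RPM, the highest of each treatment in the A0 window and in the last 30 positions, the A0 position and position 700, and others are said to have been chosen after their values were seen. The region, lists and rules were chosen with earlier results of these data known. Alternatives changed the pseudocount, filter, test, scaling, windows, replicates and replicate block.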

Additional observations from a re-analysis of the deposited data

How the results depend on the processing

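The share of distal ETS1 kept its direction under every alternative run, with leave-one-out log2 differences of -2.11 to -1.40 at 2 min, -2.86 to -2.51 at 16 min and -2.40 to -2.05 over both times (exact permutation test, p = 0.005 to 0.01). The ratio of distal to proximal ETS1 at 16 min, 0.0036 in the full data, turned to -0.0038 without the highest position of each region and lay between -0.052 and 0.062 with 1 library left out. The A0 window gave 0.32 and 0.46 with 40 positions. The last 30 positions gave 0.039 at 2 min with 10 positions, and -0.60 and -0.25 at 16 min with 10 and 50 (-0.17 to 0.26 with 1 library left out). U upstream of the top 10% differed by 0.10 and 0.29 points.

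Counts of lower positions at 2 min were 146 with the median ratio and 0 to 316 with 1 library left out (higher 0 to 1), and at 16 min 121 with a pseudocount of 0.1, 119 with a mean of at least 10 RPM and 142 to 203 with 1 library left out. Relative to the region, the lower counts at 2 min were 15 with a pseudocount of 5, 13 with a mean of at least 10 RPM, 37 with edgeR and 2 to 80 with 1 library left out, and the higher counts 8, 30 and 4 to 41 under the last 3 of these. At 16 min the lower counts were 43 with a pseudocount of 0.1, 37 with a mean of at least 10 RPM, 30 with edgeR and 34 to 85 with 1 library left out (higher 17 to 33).

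Deviations of same-numbered libraries correlated at -0.36, -0.10 and -0.13 at 2 min. They did so at 0.09, 0.08 and 0.30 at 16 min, where each library correlated best with its own number, a hint from the data and not from the design. For BMH-21 replicate 2 this was nearly a tie, with 0.0790 for its own number and 0.0786 for vehicle replicate 1. The labels give no pairing and not every pair exceeded 0.1, so the numbers were not taken to pair the libraries. With the replicate number as a block, limma called 126 positions lower at 2 min and 203 at 16 min, and relative to the region 12 lower and 9 higher at 2 min and 74 and 28 at 16 min.

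Among the named positions, 432 at 2 min was 0.21 with the median ratio and -0.28 to 0.22 with 1 library left out, and 631 at 16 min was -0.025 with the sum over the mature regions and -0.48 to 0.99 with 1 left out, as 630 was -0.37 to 1.23. Relative to the region, 437 and 700 at 2 min lay between -0.034 and 0.15 and between -0.13 and 0.15, and 377 and 623 at 16 min between -0.58 and 0.56 and between -0.049 and 0.26. All these were not past the threshold, and the cause was not tested. Depth limits single positions, with 4673 to 20539 reads in the region after BMH-21 at 2 min and 2221 to 6860 at 16 min.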

Other observations

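Position 600, a U 10 nt before A0 that the naming rule did not choose and that was picked after its values were seen, was high in replicate 3 of both treatments at 16 min, with 66.4 RPM after BMH-21 and 295 RPM after vehicle. Replicates 1 and 2 had 6.01 and 8.34 RPM after BMH-21, against 37.2 and 30.3 RPM after vehicle. At 2 min the position had 26.5, 6.98 and 13.7 RPM after BMH-21, against 32.3, 42.0 and 35.3 RPM after vehicle, and no replicate stood out in the same way.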
